A study of Caenorhabditis elegans with 2 samples.

Results

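The LIR-3-GFP peaks described here are those whose summit lies in the piRNA gene clusters of Caenorhabditis elegans chromosome IV, taken as 4.5 to 7 Mb (the left cluster) and 13.5 to 17.2 Mb (the right cluster) on build ce11. They number 978 of the 20360 peaks that were called on both replicates pooled, with 447 in the left and 531 in the right cluster. The other 2344 peaks of chromosome IV served as the comparison. Chromatin immunoprecipitation with sequencing (ChIP-seq) was done on whole hermaphrodite worms at the L4 larval stage, of strain OP312 with the genotype unc-119(ed3) III; wgIs312. The strain is 1 transgenic line that stably makes LIR-3, a relative of the zinc-finger protein LIN-26, joined at its C-terminus to a GFP-FLAG tag. The labels name the antibody as lir-3 in one field and as anti-GFP in another. Worms were collected 48 hours after release from L1 starvation. There is 1 group of 2 biological replicates and no other genotype or treatment, and whole animals mix germ line and soma. The promoter that drives the transgene is not given in the sources used here. Since there is no second condition, every comparison is between stretches of the genome within the same libraries, and no test was run over peaks.

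In worms, piRNAs are short RNAs that begin with uracil, are bound by the Piwi protein PRG-1 in the germ line, and guide the silencing of transposons and other foreign sequence. Each is made from its own small unit transcribed by RNA polymerase II, most often with a conserved motif upstream, and the units crowd into clusters on chromosome IV where factors such as SNPC-4, PRDE-1, TOFU-4 and TOFU-5 bind. Of 15363 annotated piRNA genes, 14204 start in the clusters, with 2816 in the left and 11388 in the right one. The same stretches also hold other genes, among them 41 tRNA genes, which RNA polymerase III transcribes from promoter elements inside the gene, called the A box and the B box.

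The peaks came as relaxed lists, which by design include background regions, and as a short list that passed the submitters' irreproducible discovery rate (IDR) procedure, which keeps peaks whose ranks are reproducible between replicates. The relaxed lists held 894 cluster peaks of 17311 for replicate 1 and 983 of 20601 for replicate 2. The IDR list held 26 cluster peaks of 552, and these 26 were also the cluster peaks with the highest signal in the pooled list. Signal is the authors' score for a peak, whose scale is not given and which can be compared only within a list. No read counts were used, so sequencing depth is unknown. The interval beside a share is a 95% Wilson interval. It covers counting error only, not the spread between worms. Neighbouring peaks can belong to the same site, and merging overlapping intervals left 891 in the clusters. Nearest the limits of the clusters, the peaks just inside had signals of 54.2 and 29.3 on the left and 24.8 and 35.3 on the right, and those just outside 24.1 and 33.9 on the left and 27.5 and 26.1 on the right.

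Sequences of 2 sets are shown first as examples. The highest cluster peak, at rpl-18A and Y17G9B.5, is in neither set. The tRNA peaks shown are not simply those of highest signal. The peak at the tRNA-Asp gene Y105C5B.t1 (143.7) is stronger than those shown at Y57G11B.t1 (122.4) and Y65A5A.t1 (110.6). Its window holds no A box or B box match. The first set is the 101 bases centred on the summit at 6 peaks of the IDR list, with tRNA A box and B box matches in capitals, read along the strand of the tRNA gene, or of the piRNA gene where there is none. All are from the RefSeq sequence of WBcel235, which has the coordinates of ce11. The peaks at the tRNA-Ala genes Y7A9D.t2 (IV:16389230-16389330, minus strand) and Y65A5A.t1 (IV:16398377-16398477, plus strand), at the tRNA-Lys gene B0350.t1 (IV:5967117-5967217, plus strand) and at the tRNA-Gly gene Y57G11B.t1 (IV:14576587-14576687, minus strand) are followed by the 2 IDR peaks whose only annotated starts are of piRNA genes, those of 21ur-10291 (IV:14838315-14838415, minus strand) and 21ur-10279 (IV:15693377-15693477, minus strand).
Y7A9D.t2: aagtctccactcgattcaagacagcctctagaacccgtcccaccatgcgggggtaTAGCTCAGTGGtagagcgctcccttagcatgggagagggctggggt
Y65A5A.t1: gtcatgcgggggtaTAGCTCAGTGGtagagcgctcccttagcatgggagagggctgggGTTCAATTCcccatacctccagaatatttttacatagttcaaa
B0350.t1: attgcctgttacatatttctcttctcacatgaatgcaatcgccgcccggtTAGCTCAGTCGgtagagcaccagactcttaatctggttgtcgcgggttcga
Y57G11B.t1: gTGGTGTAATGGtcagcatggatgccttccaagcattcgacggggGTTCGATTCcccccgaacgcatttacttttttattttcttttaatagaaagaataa
21ur-10291: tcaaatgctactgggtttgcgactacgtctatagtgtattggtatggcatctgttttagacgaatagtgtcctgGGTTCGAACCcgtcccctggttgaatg
21ur-10279: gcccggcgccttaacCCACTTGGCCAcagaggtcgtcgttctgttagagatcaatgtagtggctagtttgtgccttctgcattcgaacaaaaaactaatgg
In the first 4 the capitals lie within the tRNA gene. In the window of 21ur-10291 the capitals are a B box match on both strands, and in that of 21ur-10279 an A box match on the opposite strand.

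The second set is 3 piRNA genes with a start in the window of an IDR peak, each shown as the 60 bases upstream in lower case followed by the 21 bases of the piRNA in capitals. The piRNA upstream core motif, CTGTTTCA, is in capitals where it occurs. They are 21ur-2298 (IV:14224784-14224864, minus strand) and 21ur-13268 (IV:6480716-6480796, minus strand), which carry the motif, and 21ur-5229 (IV:5967029-5967109, plus strand), which lies beside the tRNA gene B0350.t1 and does not match it letter for letter. No other of the 11 cluster piRNA genes with an IDR summit in the window carries the motif in these 60 bases.
21ur-2298: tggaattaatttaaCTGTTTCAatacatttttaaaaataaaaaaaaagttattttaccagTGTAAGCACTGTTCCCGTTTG
21ur-13268: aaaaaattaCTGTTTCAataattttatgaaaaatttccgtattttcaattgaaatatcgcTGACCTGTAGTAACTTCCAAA
21ur-5229: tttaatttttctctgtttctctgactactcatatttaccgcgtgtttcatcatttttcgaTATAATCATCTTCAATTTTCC
Over the 60 bases upstream, the motif was found at 39.7% of the 2816 piRNA genes of the left cluster and at 33.6% of the 11388 of the right one. Its first base lay at a median of 46 bp upstream of the piRNA in both.

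Peaks were sparser in the clusters than on the rest of chromosome IV. The pooled list gave 157.7 peaks per Mb in the clusters, with 178.8 in the left and 143.5 in the right cluster, against 207.5 per Mb on the rest of the chromosome. The ratio was 0.760 (95% interval 0.705 to 0.819, counting error only), and it was 0.861 for the left and 0.691 for the right cluster. The lists of the single replicates gave 144.2 against 175.1 per Mb in replicate 1 and 158.5 against 208.3 per Mb in replicate 2, so the clusters were the sparser stretch in both. The clusters held 29.4% of the chromosome's peaks on 35.4% of its length. They also have fewer protein-coding genes, 151.8 against 207.2 starts per Mb. Whether the lower gene density or the mapping of reads to repeated sequence bears on the number of peaks was not tested.

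**Figure D1:**
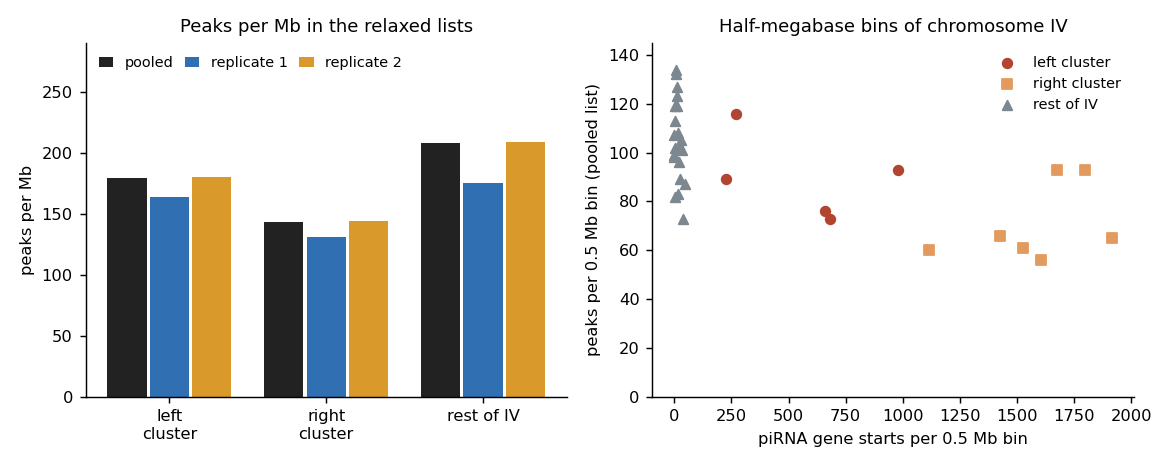
Left, bars give the peaks per Mb (y axis) in the left cluster, the right cluster and the rest of chromosome IV for the pooled list and for the list of each replicate. Right, each point is a 0.5 Mb bin of chromosome IV, with its number of annotated piRNA starts on the x axis and its number of pooled peaks on the y axis. Bins of the right cluster hold 56 to 93 peaks, those of the left cluster 73 to 116 and those of the rest 73 to 134.

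In bins of 0.5 Mb the ranges overlapped. The 7 bins of the right cluster held 56 to 93 peaks with a median of 65, the 5 of the left cluster 73 to 116 with a median of 89, and the 22 full bins of the rest of the chromosome 73 to 134 with a median of 102. The bins of the right cluster had 1116 to 1915 piRNA starts each and those of the left 227 to 978, against 0 to 48 in the full bins of the rest. piRNA genes continue past the limit of the right cluster: 175 of the 510 on the rest of chromosome IV start between 17.2 Mb and the chromosome end, a stretch that is in none of these bins. All 5 bins of the left cluster and 2 of the right one, with 93 peaks each, were within the range of the rest.

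Signal and support from the replicates were close to those of the rest of the chromosome. Median signal in the pooled list was 30.5 in the clusters (quartiles 26.6 and 38.3) and 30.8 on the rest of the chromosome (26.6 and 38.3). In the single lists it was 20.4 against 20.6 for replicate 1 and 17.1 against 17.1 for replicate 2. Of the 978 cluster peaks, 365 (37.3%, 34.3 to 40.4) were overlapped by a peak of both replicate lists, against 39.5% of the rest of chromosome IV and 40.3% of the whole pooled list. A further 108 cluster peaks (11%) were overlapped in neither list, against 226 (9.64%) of the rest. An IDR peak was overlapped by 31 cluster peaks (3.17%, 2.24 to 4.46), against 2.26% on the rest of chromosome IV and 3.32% over all peaks, and the 95% interval of the difference between the clusters and the rest of IV, -0.24 to 2.31 percentage points, includes 0. By length, the IDR list gave 4.19 peaks per Mb in the clusters, with 2.8 in the left and 5.14 in the right one, against 3.72 on the rest of the chromosome.

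Summits lay at piRNA gene starts less often than the space those starts take up. The window of a start ran from 500 bp before it to 200 bp after it, along the gene's strand. The windows of piRNA genes overlap so much that they cover 55.8% of the bases of the clusters, but they held 384 of the 978 summits (39.3%, 36.3 to 42.4), a ratio of 0.703. The shortfall was present in each cluster, with 25.5% of summits on 40.1% of bases in the left cluster and 50.8% on 66.4% in the right one. In peaks per Mb, the windows had 110.9 and the sequence between them 217.0, which is close to the 207.5 of the rest of the chromosome. Replicate 1 alone gave 110.1 per Mb in the windows against 187.4 between them, and replicate 2 gave 117.0 against 211.1. On the rest of chromosome IV, 2.13% of summits and 2.45% of bases were in such a window, and 2.58% of all peaks of the pooled list were at a piRNA start. With only the piRNA genes that carry the upstream core motif, the ratio was 0.710.

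Summits were also farther from piRNA starts than bases taken at even steps. In the left cluster the median distance from a summit to the nearest piRNA start was 1848 bp, while that of every 100th base was 585 bp. In the right cluster it was 310 bp, while that of every 100th base was 155 bp. Within 100 bp of a piRNA start lay 41 summits of the left (9.17%) and 125 of the right cluster (23.5%), where 17.0% and 38.3% of bases lie as near. Counted by gene, 936 of the 14204 piRNA genes of the clusters (6.59%, 6.19 to 7.01) had a pooled summit in the window, against 55 of the 510 on the rest of chromosome IV (10.8%, 8.38 to 13.8). Those 55 comprised 15 of the 175 genes past the right cluster (8.57%, 5.26 to 13.7) and 40 of the other 335 (11.9%, 8.89 to 15.9). An IDR summit was in the window of 11 of the 14204 piRNA genes of the clusters (0.0774%, 0.0432 to 0.139). It was in that of 0 of the 510, which allows a share of up to 0.588%, and of 4 of 487 on the other autosomes (0.821%, 0.320 to 2.09).

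**Figure D2:**
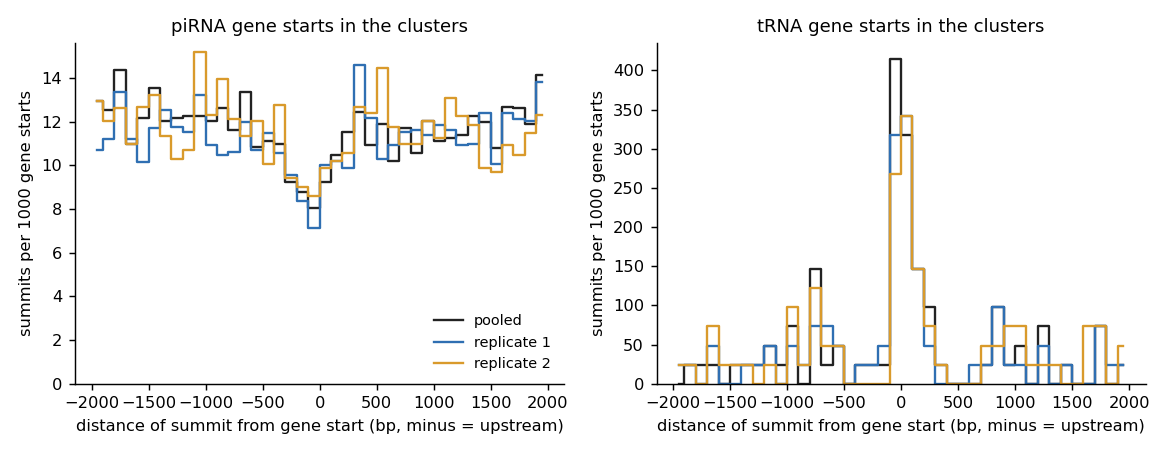
Summits per 1000 gene starts (y axis) in 100 bp bins of distance from the start, minus being upstream (x axis), for the piRNA genes (left) and the tRNA genes (right) of the clusters, in the pooled list and the list of each replicate. The lines dip just upstream of piRNA starts, to 8.03 per 1000 in the pooled list, and peak at tRNA starts, at 414.6 per 1000; the y axes differ.

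Lined up on the piRNA starts of the clusters, summits were scarcest in the 100 bp just upstream, the side where the core motif sits. That bin had 8.03 summits per 1000 starts in the pooled list, 7.11 in replicate 1 and 8.59 in replicate 2. It was the lowest of the bins within 2000 bp in all 3 lists, whose medians over the bins were 11.9, 11.3 and 11.6. The profile of tRNA starts had the opposite form, with 414.6 summits per 1000 tRNA starts in the same bin of the pooled list. Because neighbouring piRNA genes share windows, 1 summit can be counted at several starts in the piRNA profile, which was not matched for GC content. At the 510 piRNA starts on the rest of chromosome IV, the bin just upstream had 19.6 per 1000 in the pooled list, 13.7 in replicate 1 and 9.80 in replicate 2. The medians over the bins there were 15.7, 13.7 and 13.7. Those bins hold few summits, 10, 7 and 5 in the bin just upstream.

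Base composition moved with these counts. The 101 bases around cluster summits had a median GC content of 38.6%, above the 32.7% and 30.7% of windows at every 100th base of the left and right cluster, while summits on the rest of chromosome IV had 39.6% in sequence with a median of 34.7%. Windows of 40% GC or more had 354.7 peaks per Mb, and windows under 30% GC had 101.2. Setting summits only against bases of like GC brought the ratio at piRNA starts nearer to 1. It was 0.903 (0.822 to 0.978) under 30% GC, 0.719 (0.606 to 0.840) from 30% to 40% and 0.837 (0.713 to 0.975) at 40% or more. In replicate 1 alone the ratios were 0.949, 0.785 and 0.932, and in replicate 2 alone 0.842, 0.817 and 0.921, in the same order. All 9 were below 1, although in the class of 40% or more the 30.2% of bases in a window was inside the interval of the summits in each single list, 23.9% to 32.8% in replicate 1 and 23.7% to 32.3% in replicate 2. The same held for replicate 1 under 30% GC, where 68.3% of summits (62.3 to 73.7) stood against 71.9% of bases. For the piRNA genes with the core motif, the pooled ratios were 0.958, 0.713 and 0.841, and replicate 1 under 30% GC gave 1.02.

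Peaks in the thick of piRNA genes were weaker and less often found in both replicates. Members were sorted by the number of piRNA starts within 500 bp of the summit. The 530 members with none had a median signal of 32.3, the 199 with 1 to 2 had 29.6, the 184 with 3 to 5 had 28.9 and the 65 with 6 or more had 27.5. Both replicates supported 46.8%, 33.7%, 22.3% and 13.8% of them in the same order. Median GC content fell along the same order, at 42.6%, 35.6%, 31.7% and 28.7%, and its part in the signal was not tested. Across the 978 peaks, which share 1 pool of libraries, Spearman's rho between signal and the number of piRNA starts was -0.23. Of the 31 members that overlap an IDR peak, 21 had no piRNA start within 500 bp, which is 3.96% of the 530 (2.61 to 5.98). Another 8 had 1 to 2 starts, a like share of 4.02% of the 199 (2.05 to 7.73). Over all peaks of the pooled list the share was 3.32%. With 3 to 5 starts it was 1 of 184 (0.543%, 0.096 to 3.01) and with 6 or more 1 of 65 (1.54%, 0.272 to 8.21).

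**Figure D3:**
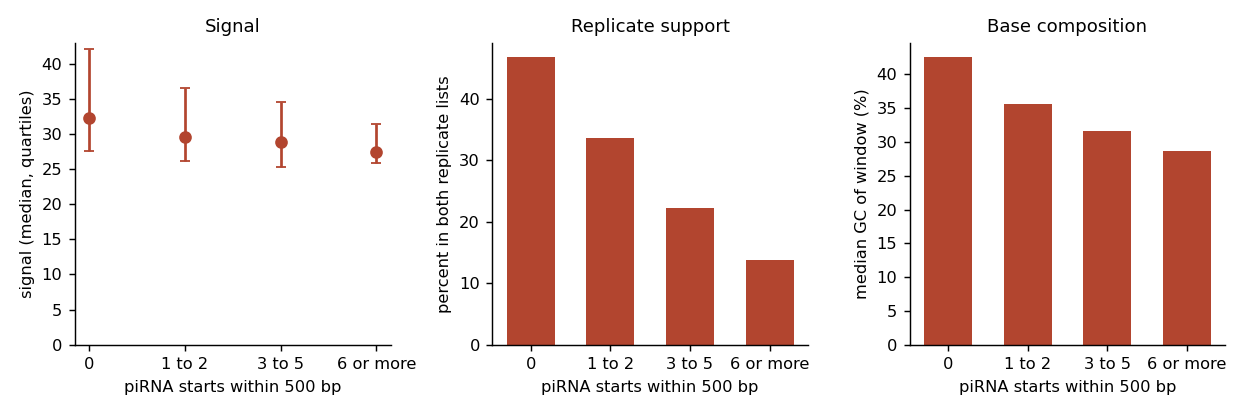
The 978 cluster peaks sorted by the number of piRNA starts within 500 bp of the summit (x axes). Left, signal as median and quartiles; middle, percent overlapped in both replicate lists; right, median GC content of the 101-base window. All 3 fall along the order, with medians of signal of 32.3, 29.6, 28.9 and 27.5.

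The upstream core motif was also less frequent at cluster summits than in windows at even steps, without matching for GC content. CTGTTTCA, searched on both strands within 50 bp of the summit, was in 40 of the 978 members (4.09%, 3.02 to 5.52), while 7.35% of windows at every 100th base of the clusters hold it. It was in 13 of the 2344 summit windows of the rest of chromosome IV (0.555%), where 0.762% of windows hold it. Of the 384 members at a piRNA start, 37 had it (9.64%, 7.07 to 13.0). The share for even steps within piRNA windows alone was not counted, so this value has no baseline of its own. The motif lies near piRNA starts, and whether the shortfall there or the higher GC content of summits bears on its share was not tested. None of the 26 cluster IDR peaks did, which allows a share of up to 11.5%. A window without these letters says nothing of what is bound there.

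Most of the strongest cluster peaks were at tRNA genes. Each peak was given 1 kind by the starts in its window, in the order tRNA, snoRNA, snRNA, miRNA, protein-coding, other noncoding, piRNA only. A tRNA start was at 37 cluster peaks (3.78%, 2.76 to 5.17), against 24 on the rest of chromosome IV (1.02%) and 2.53% of all peaks. The difference from the rest of chromosome IV was 2.76 percentage points (1.62 to 4.19). It came from the right cluster, with 30 of 531 (5.65%, 3.99 to 7.95), while the left had 7 of 447 (1.57%, 0.761 to 3.2), an interval that includes the 1.02% of the rest. The clusters have more tRNA genes to begin with, 41 or 6.61 per Mb against 30 or 2.66 per Mb. Per gene the intervals overlapped. Of the cluster genes, 34 of 41 had a pooled summit (82.9%, 68.7 to 91.5), against 24 of 30 on the rest of the chromosome (80%, 62.7 to 90.5), and 15 had an IDR summit (36.6%, 23.6 to 51.9), against 9 (30%, 16.7 to 47.9). Of the tRNA peaks of the clusters, 31 of 37 (83.8%, 68.9 to 92.3) were found in both replicate lists, and every one in at least 1. By contrast, 68 of the 324 peaks with a piRNA start only were in both lists (21%, 16.9 to 25.7). The rest of chromosome IV had like shares, with 20 of 24 tRNA peaks (83.3%, 64.1 to 93.3) and 8 of 36 piRNA-only peaks (22.2%, 11.7 to 38.1). Over all peaks of the pooled list the share in both lists was 40.3%.

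**Figure D4:**
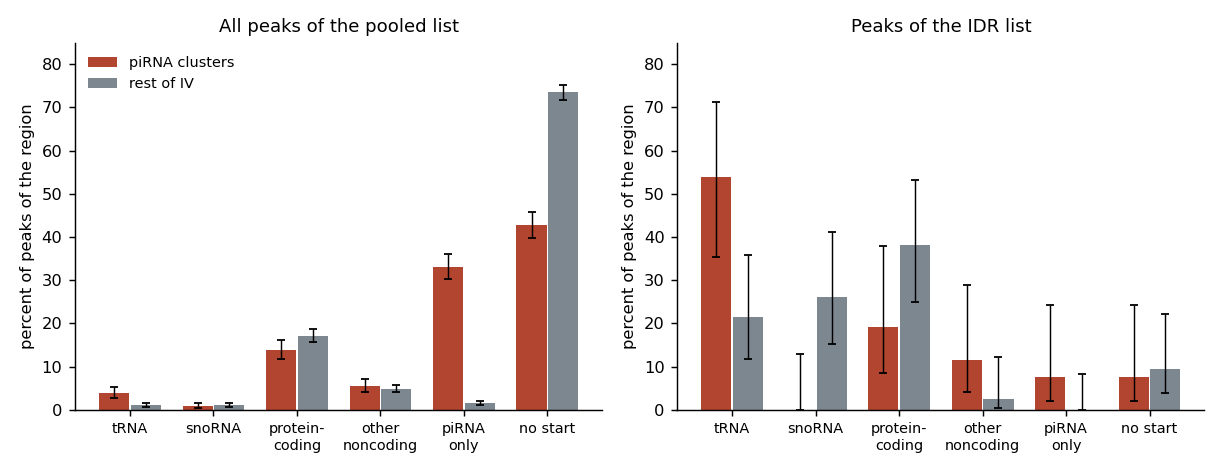
Percent of peaks (y axis) by the kind of gene start in the window, for the piRNA clusters and the rest of chromosome IV, in the pooled list (left) and the IDR list (right); bars are shares and whiskers 95% Wilson intervals. Among IDR peaks, tRNA starts take 53.8% of the 26 in the clusters and 21.4% of the 42 on the rest of IV; over the whole IDR list the share was 36.4%.

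Among the 26 IDR peaks of the clusters, 14 had a tRNA start (53.8%, 35.5 to 71.2), 5 a protein-coding start, 3 another noncoding start, 2 only a piRNA start and 2 no annotated start. On the rest of chromosome IV the 42 IDR peaks comprised 9 at tRNA starts (21.4%, 11.7 to 35.9), 11 at snoRNA starts, 16 at protein-coding starts, 1 at a miRNA, 1 at another noncoding start and 4 with none. Over the whole IDR list, 201 of 552 peaks were at tRNA starts (36.4%, 32.5 to 40.5), a share inside the interval of the clusters, and on the X chromosome it was 109 of 173 (63%, 55.6 to 69.8). The snoRNA genes, which guide chemical modification of other RNAs, were at 0 of the 26, which allows a share of up to 11.5%. Over the whole IDR list they were at 60 of 552 (10.9%), which is under that limit, and on X at 2 of 173 (1.16%). Of the 14 tRNA peaks, 11 were in the right cluster, which has 32 of the 41 tRNA genes. The 14 had pooled signals of 90.8 to 155.4 with a median of 110.2, values of 37.1 to 94.7 in replicate 1 and 43.5 to 76.8 in replicate 2.

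The strongest tRNA peak lay at Y7A9D.t2, a tRNA-Ala gene (IV:16389072-16389487), with a signal of 155.4 in the pooled list, 75.1 in replicate 1 and 76.8 in replicate 2. Its summit was 2 bp inside the gene, and the noncoding gene Y7A9D.62 is annotated on the other strand over it. The peak at B0350.t1, a tRNA-Lys gene (IV:5966959-5967374), had 152.8, with 94.7 in replicate 1 and 56.1 in replicate 2. That of Y105C5B.t1, a tRNA-Asp gene in an intron of the receptor gene srv-16 (IV:15931768-15932183), had 143.7, with 92.6 and 53.6. These 3 were above the other tRNA peaks in the pooled list. Next came Y37A1B.t1 (tRNA-Ala, 122.9), Y57G11B.t1 (tRNA-Gly, 122.4), Y65A5A.t4 (tRNA-His, 118.8), Y65A5A.t1 (tRNA-Ala, 110.6), F02H6.t1 (tRNA-Pro, 109.8) and Y43D4A.t1 (tRNA-Gly, 107.0). The lowest 5 were the pair Y105C5B.t3 and Y105C5B.t2 (tRNA-Glu, 104.0, 1 peak between them), Y65A5A.t2 (tRNA-Ala, 97.3), Y73B6BL.t1 (tRNA-Val, 95.6), C09B9.t1 (tRNA-Lys, 91.7) and sup-24 (tRNA-Trp, 90.8), a gene in which amber suppressor mutations are known. In these lists the reads of a tRNA gene and of an antisense noncoding gene over it, such as B0350.73 or Y37A1B.334, cannot be told apart. Noncoding genes also start in the windows of Y65A5A.t1 (Y65A5A.25), F02H6.t1 (F02H6.72), Y73B6BL.t1 (Y73B6BL.283) and C09B9.t1 (C09B9.80).

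At the 37 tRNA peaks the summit stood at a median of 0 bp from the nearest tRNA start, with 13 summits inside the gene, 18 upstream and 6 beyond its end. A piRNA start was also in the window of 14 of them. Those 14 had a median signal of 43.0 (26.2 to 152.8) and 3 were IDR peaks, while the 23 without a piRNA start had a median of 84.9 (23.8 to 155.4) and 11 were IDR peaks, so the ranges overlapped. F02H6.t1 is an example of the first kind, with the starts of 21ur-2298, 21ur-5470, 21ur-3160, 21ur-15409 and 21ur-5535 all in the window of 1 peak. The A box was found within 50 bp of the summit at 12 of the 14 tRNA IDR peaks and at 1 of the other 12, and the B box, GTTCNANNC, at 6 and 1. In windows at every 100th base of the clusters the A box occurs in 5.86% and the B box in 3%.

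Identity between tRNA copies limits these values. Of the 41 tRNA genes of the clusters, 35 have at least 1 other gene of the same sequence in the genome. All 15 genes with an IDR summit were among them, with 5 to 29 copies each and a median of 15. Of the 35 genes, 32 had a pooled summit (91.4%, 77.6 to 97.0), against 2 of the 6 single-copy genes (33.3%, 9.68 to 70), of which 0 had an IDR summit, which allows a share of up to 50%. Elsewhere more single-copy genes had a pooled summit. It was 7 of 10 on the rest of chromosome IV (70%), against 85% of those with copies. The other autosomes had 48 of 70 (68.6%) against 87.7%, and X had 37 of 57 (64.9%) against 89.0%. On the rest of chromosome IV, 2 of 10 single-copy tRNA genes had an IDR summit, against 7 of 20 with copies. On the other autosomes it was 18 of 70 (25.7%, 16.9 to 37.0) against 54 of 195 (27.7%, 21.9 to 34.4). On X it was 19 of 57 (33.3%, 22.5 to 46.3) against 107 of 219 (48.9%, 42.3 to 55.4). How reads that match several copies were placed is not given in the sources used here, so a signal at 1 copy may include reads of others.

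**Figure D5:**
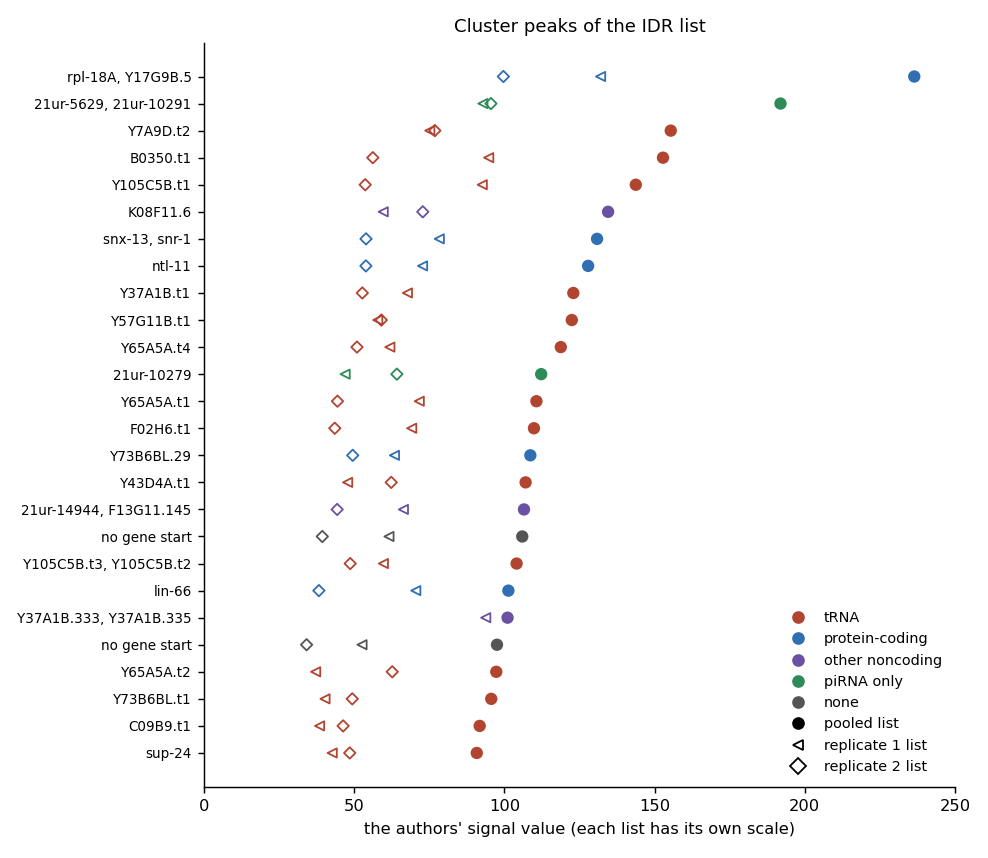
The 26 cluster peaks of the IDR list, from the highest signal (top) to the lowest, named by the tRNA or other gene starts in the window. Filled circles give the authors' signal value (x axis) in the pooled list, triangles that of the overlapping peak in the list of replicate 1 and diamonds in replicate 2; colours give the kind of start. The peak at Y37A1B.333 and Y37A1B.335 has no diamond.

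The highest cluster peak of all was at protein-coding genes. It lay between rpl-18A, which encodes a protein of the large ribosomal subunit and has the symbol rpl-20 in Ensembl, and Y17G9B.5 (IV:4749997-4750206). Its signal was 236.5 in the pooled list, 132.0 in replicate 1 and 99.6 in replicate 2, the top cluster value in each list. Its summit was 304 bp upstream of rpl-18A and 158 bp upstream of Y17G9B.5, which point away from each other. The other 4 IDR peaks at protein-coding starts lay at snx-13, a sorting nexin gene, and snr-1, which encodes a core protein of the spliceosomal particles (130.8, with 78.3 in replicate 1 and 53.9 in replicate 2), at ntl-11, of the CCR4-NOT complex (127.9, with 72.7 and 53.8), at Y73B6BL.29 (108.6, with 63.4 and 49.5) and at lin-66, a gene of the developmental timing pathway (101.3, with 70.5 and 38.2). Over all members, 140 summits were at a protein-coding start (14.3%, 12.3 to 16.6), against 17.7% on the rest of chromosome IV and 17.9% of all peaks. The clusters differed in this: the left had 85 of 447 (19%, 15.6 to 22.9), an interval that includes the 17.7% of the rest of IV, and the right 55 of 531 (10.4%, 8.04 to 13.2), below it. The windows of protein-coding starts cover 12.6% of bases in the left cluster, 8.30% in the right and 13.5% on the rest of IV. The share of summits over that of bases was 1.51, 1.25 and 1.32 in the same order. Of 941 protein-coding genes in the clusters, 138 had a pooled summit (14.7%, 12.5 to 17.1), against 437 of 2340 on the rest of the chromosome (18.7%, 17.1 to 20.3). An IDR summit was at 7 of the 941 (0.744%, 0.361 to 1.53) and at 32 of the 2340 (1.37%, 0.970 to 1.92), and these intervals overlap. Over all protein-coding genes the IDR share was 1.04%.

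Peaks whose only annotated start was a piRNA gene numbered 324, and 2 of them were IDR peaks. The stronger (IV:14838157-14838572) had a signal of 191.9, with 92.8 in replicate 1 and 95.5 in replicate 2, and was the second highest member. It lies in an intron of the protein-coding gene Y57G11C.22, and its summit was 346 bp upstream of 21ur-10291 and 347 bp upstream of 21ur-5629, whose annotated starts differ by 1 base. The other (IV:15693219-15693634) had 112.2, with 46.9 and 64.2, in an intron of Y105C5A.15, with its summit 442 bp upstream of 21ur-10279. Both summits are therefore far from the piRNA itself, and no tRNA gene is annotated in either window. As printed above, the first holds a B box match and the second an A box match. In the closest ungapped stretch of 30 bases to any of 222 annotated tRNA sequences, each shared 22 bases, where the 941 members without a tRNA start had a median of 20 and a range of 18 to 24. Below these 2, the next piRNA-only peak was at 21ur-11544 in an intron of H32C10.1, with a signal of 62.9, and the median of the 324 was 28.3, against 31.2 for the 418 members with no start in the window. On the rest of chromosome IV the 36 piRNA-only peaks had a median of 27.4 and 8 were in both replicate lists.

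An IDR peak had a piRNA start within 100 bp in 1 case, at B0350.t1, where the summit was 78 bp downstream of the start of 21ur-5229 and 7 bp downstream of that of the tRNA gene. The 26 IDR peaks included 6 with any piRNA start in the window. Of these, 3 were also at tRNA genes, 1 at the noncoding gene F13G11.145 (106.5, together with 21ur-14944) and 2 were the piRNA-only peaks above. The interval of the F13G11.145 peak (IV:14610963-14611378) also overlaps the tRNA-Arg gene F13G11.t1 (IV:14611307-14611379). The start of that tRNA gene falls just outside the window of the summit, so the peak was not counted among the tRNA peaks.

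The remaining IDR peaks had other annotations. The pseudogene K08F11.6 had 134.5, with 59.6 in replicate 1 and 72.8 in replicate 2 (IV:4727840-4728255). The noncoding genes Y37A1B.333 and Y37A1B.335 shared a peak of 101.02, with 93.8 in replicate 1 and no overlapping peak in the list of replicate 2, the only IDR member without a counterpart in a replicate list. The 2 with no start in the window lay in introns, at 105.9 in zip-7, which encodes a bZIP transcription factor, and at 97.5 in lag-1, which encodes the transcription factor of the Notch pathway. Replicate 1 and replicate 2 had 61.5 and 39.3 at the first, and 52.6 and 34.1 at the second.

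The 5 further members that overlap an IDR peak overlap or adjoin peaks already named. Their signals were 76.5 at K08F11.6, 65.5 at Y105C5B.t1, 52.8 at F13G11.145 and the tRNA gene F13G11.t1, 51.8 in an exon of Y65A5A.1 next to Y65A5A.t2, and 34.6 at Y105C5B.t3.

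Among the other small RNA genes, 8 of the 18 snoRNA genes of the clusters had a pooled summit (44.4%, 24.6 to 66.3) and 0 an IDR summit, which allows a share of up to 16.7%. On the rest of chromosome IV it was 22 of 41 (53.7%) and 11 (26.8%). The other autosomes had 122 of 254 (48.0%) and 47 (18.5%), and X had 10 of 33 (30.3%) and 2 (6.06%). The highest snoRNA peaks were at Y67A10A.14 with 76.0 (47.1 in replicate 1 and 29.0 in replicate 2), ZK185.9 with 51.3 (35.0 in replicate 1 and no overlapping peak in replicate 2), T08B6.64 with 41.1 and C17H12.36 with 40.8. Of 16 snRNA genes only Y17G9A.85 had a pooled summit, at 33.2 (6.25%, 1.11 to 28.3), against 7 of 25 on the rest of IV (28%, 14.3 to 47.6). Of 19 miRNA genes only mir-228 had one, at 34.7 (5.26%, 0.935 to 24.6), against 10 of 31 (32.3%, 18.6 to 49.9). On the other autosomes it was 36 of 85 snRNA genes (42.4%) and 55 of 137 miRNA genes (40.1%). On X it was 2 of 3 snRNA genes and 15 of 74 miRNA genes (20.3%, 12.7 to 30.8), the latter an interval that overlaps that of the clusters. All the signals given here for the clusters are under the 90.8 of the lowest IDR member. That follows from the lists, since the IDR peaks of the clusters are those of highest signal.

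Summits were placed in protein-coding exons for 34.4% of members, in introns for 27.6% and outside such genes for 38.0%, against 37.8%, 32% and 30.2% on the rest of chromosome IV.

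The genes that make and use piRNAs were looked at as a list of 54, of which 52 were found in the annotation. The first group was listed for the transcription and maturation of piRNAs, and also holds prg-1, whose protein binds piRNAs, and prg-2. The second was listed for silencing directed by piRNAs. Single members can have other roles. A pooled summit was in the window of 6 of 24 genes for transcription and maturation and of 11 of 28 for silencing, 17 of 52 in all (32.7%, 21.5 to 46.2), against 18.9% of all protein-coding genes. None had an IDR summit, which allows a share of up to 5.77%, against 1.04% of all protein-coding genes. Of the 17 peaks, 4 were found in both replicate lists, where 40.3% of all peaks of the pooled list were. Highest were tofu-1, required for piRNA abundance, with 84.2 (41.5 in replicate 1 and 42.1 in replicate 2), and mut-15, of the mutator complex that amplifies small RNAs, with 71.3 (29.5 and 42.5). The RNA-dependent RNA polymerase gene ego-1 had 45.8 and hrde-1, which encodes a nuclear Argonaute, 44.7, both with an overlapping peak in replicate 1 only. The gene of the piRNA cluster protein PRDE-1 had 39.5 (18.8 and 22.3), and that of TOFU-5 had 28.0, with an overlapping peak in replicate 2 only. The remaining 11 genes with a peak were rrf-1, set-25, rde-8, snpc-3.4, nrde-4, unc-130, erh-2, nrde-2, csr-1, set-32 and deps-1, with signals from 37.3 at rrf-1 to 24.1 at deps-1. The median over the 17 was 32.8, against 34.1 over all protein-coding genes with a peak. The 3 list members that start inside the clusters, prg-2, snpc-3.1 and pgl-1, had 0 summits.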

How the data were processed

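LIR-3-GFP ChIP-seq peaks of 2 biological replicates of 1 group were used. The authors deposited narrowPeak lists on ce11 and ce10: a relaxed list per replicate, a relaxed list of the pooled replicates and a list past the IDR threshold. Column 7 is the signal value, a score given by the authors' processing, and the significance column holds the −log10 of a q-value, as deposited. The aligner, the peak caller, the treatment of multiply mapping reads and the read depth are, in the sources used here, not given. Coordinates are 1-based on ce11, and ce10 lists gave counts only. Gene starts came from Ensembl release 115 (WBcel235, the assembly of ce11), and sequence, preferred symbols and tRNA types from RefSeq.

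Summits were set against gene windows, motifs (both strands, 50 bp either side) and bases at steps of 100 bp, with Python 3.11.15, numpy 2.4.6, pandas 2.3.3 and scipy 1.17.1. Lists overlapped where at least 1 bp was shared. Counts of shares and motifs were tested on simulated data. With 1 group there was no test between conditions, and p-values were not computed. The genes named are those at the 15 peaks of highest signal, at members overlapping the IDR list, up to 4 per gene type, and the listed piRNA pathway genes with a summit. The peak at 21ur-11544 was named after its value was seen. Members, lists and motifs were chosen with earlier results of these data known. Alternatives were the single replicate lists, ce10, other autosomes, merged intervals, other windows and overlaps, and subsets by signal. The subsets by GC content, core motif and single cluster were added after seeing the data.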

Additional observations from a re-analysis of the deposited data

How the results depend on the processing

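No paired analysis was possible because there is only 1 group. Of 68 recomputed values, 35 moved by less than the spread between the replicates or, where no replicate value exists, stayed in the 95% interval; 33 moved by more and 0 changed direction past it. The cause of each move was not tested beyond what the setting itself changes. Values are clusters over, or minus, the rest of chromosome IV. From the list of 1 replicate alone, the density ratio was 0.761 to 0.823 (0.760 pooled), the ratio of median signals 0.992 to 0.997 (0.991), the difference in the share at piRNA starts 39.5 to 40.9 percentage points (37.1), the share at piRNA starts over that of bases 0.738 to 0.763 (0.703), the tRNA difference 1.95 to 2.70 points (2.76), and the protein-coding difference -4.60 to -4.20 points (-3.43). The IDR difference was 0.757 to 1.04 points (0.909), and the snoRNA difference, -0.40 to 0.14 points (-0.21), had no settled sign. The left cluster alone gave a density ratio of 0.861 and 0.635 for the share over bases, and the right 0.691 and 0.765. With the other autosomes in place of the rest of IV, the signal ratio was 0.980, and the differences were 0.581 points for IDR overlap, 38.7 for piRNA starts, 2.17 for tRNA starts and -4.58 for protein-coding starts. With 1 peak per merged interval, the signal ratio was 0.998, the piRNA difference 38.4 points and the share over bases 0.728. Without tRNA, snoRNA and snRNA peaks the signal ratio was 0.985. With a window of 1000 bp upstream, the piRNA difference was 46.0 points, the share over bases 0.764 and the protein-coding difference -5.16 points; within 100 bp of a piRNA start the first 2 were 16.3 points and 0.571. For the upper 50% of the pooled list by signal they were 29.0 points and 0.545. For the upper 50% of the IDR list the IDR difference was 0.246 points. In windows under 30% GC the share over bases was 0.903, and at 40% GC or more 0.837. With 100 bp either side of the summit, the upstream core motif difference was 7.65 points (3.54). Depth limits are unknown since read counts were not used.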
